A study of Homo sapiens with 2 samples.

Results

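The transcripts described here belong to 49 genes of DNA replication and nucleotide synthesis, chosen by gene symbol for their known role, out of 19775 genes that have a probe set of their own on the Affymetrix Human Genome U133 Plus 2.0 array. Their expression was assayed in HepG2 cells, which derive from a human hepatocellular carcinoma. The Padma 28 group received an ethanolic extract of this Indo-Tibetan polyherbal preparation at 218 μg/ml for 18 h, and the EtOH group received 0.9% ethanol as the solvent control for the same time. Cells from 3 cultures went into 1 RNA pool and 1 array per treatment, so no spread between cultures can be given and no test across samples was made. All values are log2 expression values made by the authors with GCRMA, a method that takes the base composition of each probe into account when it removes background, then aligns the distributions of the arrays and combines the probes of a set. Differences are Padma 28 minus EtOH on the log2 scale. Where several probe sets belong to 1 gene alone, the one with the highest mean over both arrays stands for it.

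Before a chromosome can be copied, the origin recognition complex with CDC6 and CDT1 loads the ring-shaped MCM helicase onto DNA in G1 phase. At the start of S phase MCM10, CDC45 and the GINS complex turn the loaded helicase into an active one, and primase and the DNA polymerases follow with their clamp PCNA, the clamp loader RFC and the single-strand binding protein RPA. Ribonucleotide reductase, thymidylate synthase and thymidine kinase supply the deoxynucleotides. Many of these genes are transcribed under the control of E2F factors around the transition from G1 to S phase, and they are active in proliferating cells such as hepatoma lines, whereas hepatocytes of the resting liver rarely divide.

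With Padma 28 none of the 49 genes was more than 2-fold higher or lower, while small positive differences were common. The log2 difference was above 0 for 37 genes and below 0 for 12, with a median of 0.20, a highest value of 0.93 for GINS4 and a lowest of -0.29 for RFC1. Among the 10361 genes well above background on at least 1 array, 58.1% were above 0 and the median was 0.06. In RNA from whole cultures, a larger share of cells in S phase and more of a transcript per cell cannot be told apart. More than 1.5-fold higher were 7 of the 49 genes, which is 14.3%, against 6.49% of all genes well above background. This excess was not seen when each gene was given the median of all its probe sets, dim ones included, with 2 of 49 or 4.08% against 4.48% of all such genes, nor with 64 added to both linear values, with 1 of 49 or 2.04% against 3.03%. None of the 49 was more than 1.5-fold lower, against 2.9% of all genes, and the shares of all genes past 2-fold were 1.57% higher and 0.705% lower. The 7 were ORC5, CDC6, MCM10, GINS4, POLD3, RFC4 and CCNE2.

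All 49 genes were well above background on at least 1 array and 48 on both, where the limit was set 2 log2 units above the most frequent value of an array, at 4.35 with Padma 28 and 4.25 with EtOH. After sorting, the values of both arrays lay within 0.099 of each other. The 3′ minus 5′ difference, a sign of RNA integrity, of GAPDH was 0.04 with Padma 28 and 0.08 with EtOH, and that of ACTB was 1.13 with either treatment. The 8 hepatocyte markers with a probe set of their own lay between 12.84 and 16.52 with Padma 28 and between 13.28 and 16.62 with EtOH, and all 8 were lower with Padma 28, with a median difference of -0.20, or 7 of 8 with each array centred on its median. The lowest were fibrinogen beta, FGB, at -0.55, transthyretin, TTR, at -0.44 and apolipoprotein B, APOB, at -0.30. Over 10 reference genes the median difference was -0.02, and those farthest from 0 were TBP at 0.33, PGK1 at -0.17 and GUSB at 0.17. Their part in the values below was not tested. Of 7 markers of leukocytes, endothelium, fibroblasts and muscle, 5 were below background on both arrays, while PECAM1 was at 6.81 with Padma 28 and 6.49 with EtOH, and COL1A1 at 6.71 with Padma 28 and 6.74 with EtOH.

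**Figure D1:**
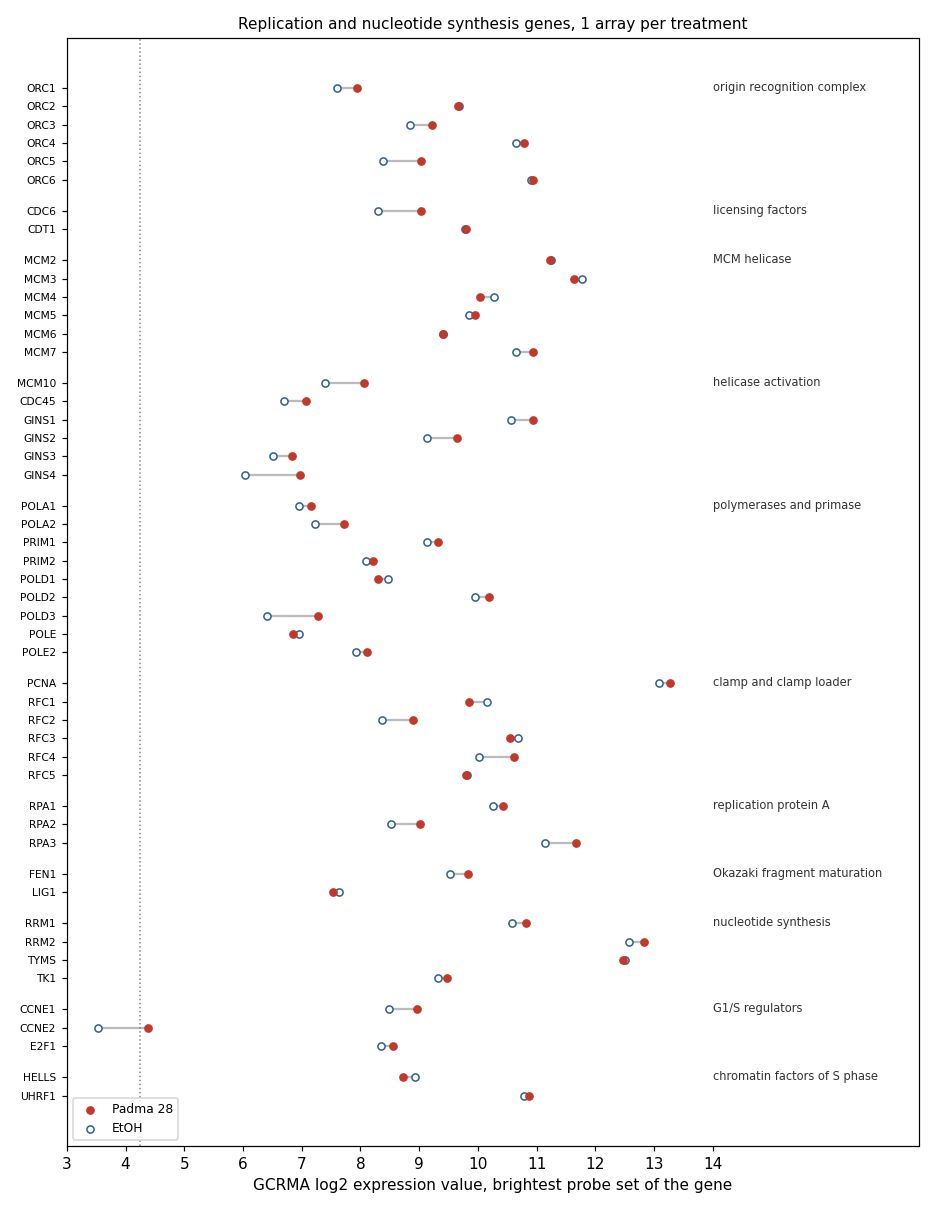
Log2 expression value (horizontal axis) of the brightest probe set of each of the 49 genes with Padma 28 (filled red) and with EtOH (open blue), 1 array per treatment, grouped by role, with the background limit of the EtOH array as a dotted line. Most red points lie to the right of their blue partner, and CCNE2 is the only gene below the limit with EtOH. For each of MCM2 to MCM7 the red and the blue point lie at most 0.29 apart.

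E2F binding sites are the best known shared feature of these promoters, so the promoters were searched for the letters TTTCCCGC, TTTCGCGC, TTTGCCGC and TTTGGCGC on both strands, where matches may overlap. RefSeq promoters of GRCh38.p14, 250 bases before to 50 bases after the start of a gene, were at hand for 42 of the 49 genes, and not for MCM4, MCM5, GINS4, POLD3, RPA2, RPA3 and CCNE2. A match was present in 21 of the 42, compared with 3.33% of all 27305 promoters. The 6 stretches below run from 110 bases before to 20 bases after the start. They are shown because their genes cover the range of responses among genes with a match. CDC6 and GINS2 had larger positive differences, at 0.74 and 0.52, and E2F1 had a small one, at 0.20. MCM2 at -0.02, MCM3 at -0.14 and HELLS at -0.21 were below 0. The stretches lie at chr17:40287769-40287898 (plus strand) for CDC6, chr16:85688935-85689064 (minus strand) for GINS2, chr6:52284723-52284852 (minus strand) for MCM3, chr3:127598301-127598430 (plus strand) for MCM2, chr20:33686366-33686495 (minus strand) for E2F1 and chr10:94545678-94545807 (plus strand) for HELLS. Each is printed 5′ to 3′ in the direction of the gene, with the matches in capitals:
CDC6: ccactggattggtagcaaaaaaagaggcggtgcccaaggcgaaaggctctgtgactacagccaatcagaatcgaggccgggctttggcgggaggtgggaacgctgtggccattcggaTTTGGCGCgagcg
GINS2: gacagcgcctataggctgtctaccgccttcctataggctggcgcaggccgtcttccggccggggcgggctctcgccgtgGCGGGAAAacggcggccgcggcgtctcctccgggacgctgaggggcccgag
MCM3: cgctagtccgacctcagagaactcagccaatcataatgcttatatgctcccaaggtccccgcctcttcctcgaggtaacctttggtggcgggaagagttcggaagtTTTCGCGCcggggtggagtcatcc
MCM2: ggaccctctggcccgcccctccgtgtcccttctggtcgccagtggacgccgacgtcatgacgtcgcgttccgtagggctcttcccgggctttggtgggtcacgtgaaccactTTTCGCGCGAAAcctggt
E2F1: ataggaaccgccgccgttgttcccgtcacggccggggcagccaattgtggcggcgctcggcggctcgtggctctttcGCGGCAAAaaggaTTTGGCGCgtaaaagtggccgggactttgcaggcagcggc
HELLS: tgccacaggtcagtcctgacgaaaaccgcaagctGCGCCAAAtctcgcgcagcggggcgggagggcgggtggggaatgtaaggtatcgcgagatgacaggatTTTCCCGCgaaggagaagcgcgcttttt

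The match of CDC6 began at base 8 of the transcript and that of GINS2 at 31 bases before the start. MCM2 held 2 overlapping matches that began at bases 3 and 7, while MCM3 had 1 match at 4 bases before the start and another further upstream, outside the stretch shown. E2F1 and HELLS, a chromatin remodeler, each held 2 matches upstream of the start. All 4 promoters at hand for the MCM2 to MCM7 genes contained a match, as did 3 of the 5 at hand for the GINS, CDC45 and MCM10 genes. Among these 42, genes with and without a match covered similar ranges of response. Those with a match had a median log2 difference of 0.19, ranging from -0.21 to 0.74. The 21 without one had a median of 0.23, ranging from -0.29 to 0.66. GINS4, POLD3 and CCNE2, which had no promoter at hand, are missing from both. Their differences of 0.93, 0.86 and 0.86 were the largest of the 49 genes. The CCAAT letters, the core of the NF-Y site, were in 25 of the 42 promoters against 35.7% of all, and the core of the antioxidant response element, TGACNNNGC, was in 8 of 42 against 13.6% of all. A match is a run of letters and not a measured binding site.

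**Figure D2:**
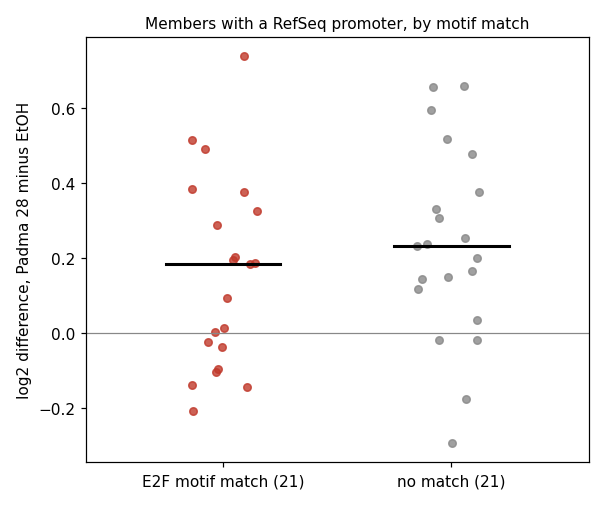
Log2 difference, Padma 28 minus EtOH (vertical axis), of the 42 genes with a RefSeq promoter, split by a match to the E2F letters, where each point is a gene and black bars are medians, from 1 array per treatment. The 21 genes with a match and the 21 without cover nearly the same range. GINS4, POLD3 and CCNE2, with the largest differences of the 49 genes, had no promoter at hand and are not plotted.

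The origin recognition complex, which marks the sites where replication starts, was slightly higher with Padma 28, with a median of 0.24 over its 6 subunits. ORC5 led with 9.03 with Padma 28 and 8.38 with EtOH, which is 1.58-fold higher. A second probe set of ORC5 had a difference of 0.37, and the remaining one was below background on both arrays. The large subunit ORC1, which appears in G1 phase, was at 7.93 with Padma 28 and 7.60 with EtOH, and ORC3 was at 9.22 with Padma 28 and 8.84 with EtOH. These are differences of 0.33 and 0.38. ORC4, an ATP-binding subunit, differed by 0.14 on its brightest probe set and by 0.55 on the other, while ORC2 at -0.02 and ORC6 at 0.03 lay close to 0 and changed sign with the scaling of the arrays.

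CDC6, the ATPase that recruits the helicase to the origin complex, was 1.67-fold higher, with 9.03 with Padma 28 and 8.29 with EtOH. Its other probe set was at 9.06 with Padma 28 and 8.26 with EtOH, a difference of 0.80, so both differed alike. For CDT1, the partner of CDC6 in helicase loading, the probe sets diverged. The brighter one, an _x_at set that may also bind unrelated sequences, was at 9.80 with Padma 28 and 9.79 with EtOH. The dimmer one was at 7.95 with Padma 28 and 7.43 with EtOH, a difference of 0.52.

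The helicase ring itself hardly differed between the treatments, with 3 of the 6 genes MCM2 to MCM7 above 0 and a median of -0.01. Other scalings of the arrays gave 2 or 4 of 6 above 0 and medians from -0.07 to 0.04. MCM2 was at 11.22 with Padma 28 and 11.24 with EtOH, and MCM6 was at 9.40 on both arrays. MCM3 was at 11.64 with Padma 28 and 11.78 with EtOH. MCM4 was lowest in the ring, with 10.03 with Padma 28 and 10.28 with EtOH, and all 4 of its probe sets above background were below 0, from -0.41 to -0.11. MCM7 was highest, with 10.94 with Padma 28 and 10.65 with EtOH, and differences of 0.29 and 0.27 on its 2 probe sets. The probe sets of MCM5 fell on either side of 0, at 0.10 and -0.17.

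The factors that activate the ring were all higher with Padma 28 on their brightest probe sets, from 0.33 to 0.93, beside -0.25 to 0.29 for the ring. With the median over all probe sets, dim ones included, GINS4 at -0.013 and GINS2 at -0.020 lay within the range of the ring. So did a single further probe set of MCM10, at 0.23. GINS4, a subunit of the GINS complex that joins the helicase at the fork, had the largest difference of the 49 genes, with 6.96 with Padma 28 and 6.04 with EtOH, which is 1.90-fold higher. Only 1 of its 4 probe sets was above background, and the other 3 differed by -0.08 to -0.01. GINS2 was at 9.65 with Padma 28 and 9.13 with EtOH, and GINS1 at 10.95 with Padma 28 and 10.56 with EtOH. GINS3 differed by 0.33 and 0.44 on its 2 probe sets, so that all 4 GINS subunits were higher on their brightest probe set. CDC45, which completes the active helicase together with the ring and GINS, was at 7.07 with Padma 28 and 6.70 with EtOH. MCM10, which promotes activation of the helicase, was at 8.05 with Padma 28 and 7.40 with EtOH, or 1.58-fold higher, with 0.42 and 0.23 on its further probe sets. The activation factors were dimmer than the ring, with a median of 7.56 with Padma 28 and 7.05 with EtOH, against 10.48 with Padma 28 and 10.47 with EtOH for the ring.

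Subunits of the same polymerase differed in response. In polymerase delta, which synthesizes mainly the lagging strand, the catalytic subunit POLD1 was at 8.30 with Padma 28 and 8.47 with EtOH. The accessory subunit POLD2 was at 10.18 with Padma 28 and 9.95 with EtOH, and the accessory subunit POLD3 was 1.82-fold higher, at 7.27 with Padma 28 and 6.41 with EtOH. The 3 differences of -0.18, 0.23 and 0.86 span 1.04 log2 units. A second probe set of POLD3, below background on both arrays, differed by -0.31. In polymerase epsilon, the leading strand enzyme, the catalytic POLE was at 6.86 with Padma 28 and 6.95 with EtOH and the small subunit POLE2 at 8.10 with Padma 28 and 7.92 with EtOH. In polymerase alpha, which extends the RNA primer, the catalytic POLA1 differed by 0.19 and the regulatory POLA2 by 0.49. The further probe sets of POLA2 were below background on both arrays. The primase genes PRIM1 and PRIM2 were at 0.20 and 0.12, and further probe sets that PRIM2 shares with a pseudogene were not counted.

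PCNA, the sliding clamp and the brightest of the 49 genes, was at 13.27 with Padma 28 and 13.09 with EtOH. The clamp loader RFC, which places PCNA on DNA, split into subunits above and below 0. RFC4 was at 10.61 with Padma 28 and 10.01 with EtOH, or 1.51-fold higher, just past the threshold, and RFC2 at 8.89 with Padma 28 and 8.37 with EtOH. The large subunit RFC1 was at 9.85 with Padma 28 and 10.15 with EtOH, which is 1.22-fold lower and the lowest of all 49 genes, with -0.16 on its second probe set. RFC3 was at -0.14 and -0.02 on its probe sets. For RFC5 the result depended on the probe set, with -0.02 on the brightest, 0.40 on the next and 0.89 on the third.

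RPA, which coats single-stranded DNA, was higher in all 3 subunits. RPA3 was at 11.67 with Padma 28 and 11.14 with EtOH, RPA2 at 9.01 with Padma 28 and 8.52 with EtOH, and the large subunit RPA1 at 10.42 with Padma 28 and 10.25 with EtOH. The differences were 0.53, 0.49 and 0.17, none of them past 1.5-fold. Of the enzymes that join the fragments of the lagging strand, the flap nuclease FEN1 was at 0.31 and 0.24 on its 2 probe sets and the ligase LIG1 at -0.10.

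Of the 4 genes of deoxynucleotide supply, RRM1, RRM2 and TYMS were brighter than the median of the 49 genes and TK1 lay at it. None was past 1.5-fold. Ribonucleotide reductase, which makes deoxynucleotides from ribonucleotides, had nearly equal differences in both subunits. RRM1 was at 10.81 with Padma 28 and 10.57 with EtOH, and RRM2, whose level is tied to S phase, was at 12.83 with Padma 28 and 12.57 with EtOH. Their further probe sets, at 0.28 and 0.32, pointed the same way. Thymidylate synthase TYMS was at 12.47 with Padma 28 and 12.51 with EtOH, with 0.03 on its second probe set above background. Thymidine kinase TK1, the salvage enzyme, was at 9.47 with Padma 28 and 9.32 with EtOH, with 0.34 on its second probe set.

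Of the 3 regulators of entry into S phase, all had a difference above 0 and only CCNE2 was past 1.5-fold. CCNE1, cyclin E1, an activator of the kinase CDK2, was at 8.96 with Padma 28 and 8.48 with EtOH, a difference of 0.48. CCNE2, cyclin E2, was counted among the 7 genes past 1.5-fold with 4.38 with Padma 28 and 3.52 with EtOH. The EtOH value was below background and the Padma 28 value only just above its limit of 4.35. Measured from the EtOH limit the transcript was at least 1.10-fold higher, a bound that depends on where the limit is set. Among genes above background on both arrays, 6 of 48 members or 12.5% were past 1.5-fold, against 6.05% of all such genes. Its other probe set was below background on both arrays. The transcription factor E2F1 was at 8.55 with Padma 28 and 8.35 with EtOH, and a second probe set differed by 0.41.

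UHRF1, which reads hemimethylated DNA behind the fork, was at 10.87 with Padma 28 and 10.78 with EtOH. HELLS, a helicase of the SNF2 family that supports DNA methylation, had 5 probe sets above background. The 4 brighter ones differed by -0.21 to 0.05, and the brightest was at 8.72 with Padma 28 and 8.93 with EtOH. The one with the lowest mean over both arrays went another way, at 5.85 with Padma 28 and 3.69 with EtOH, which is below background, so that it was at least 3.02-fold higher. It is the only one of the 78 probe sets of the 49 genes above background that was more than 2-fold higher, against 1.51% of such probe sets of all genes. None was more than 2-fold lower, against 0.99%, and the other 4 HELLS probe sets do not share its change.

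**Figure D3:**
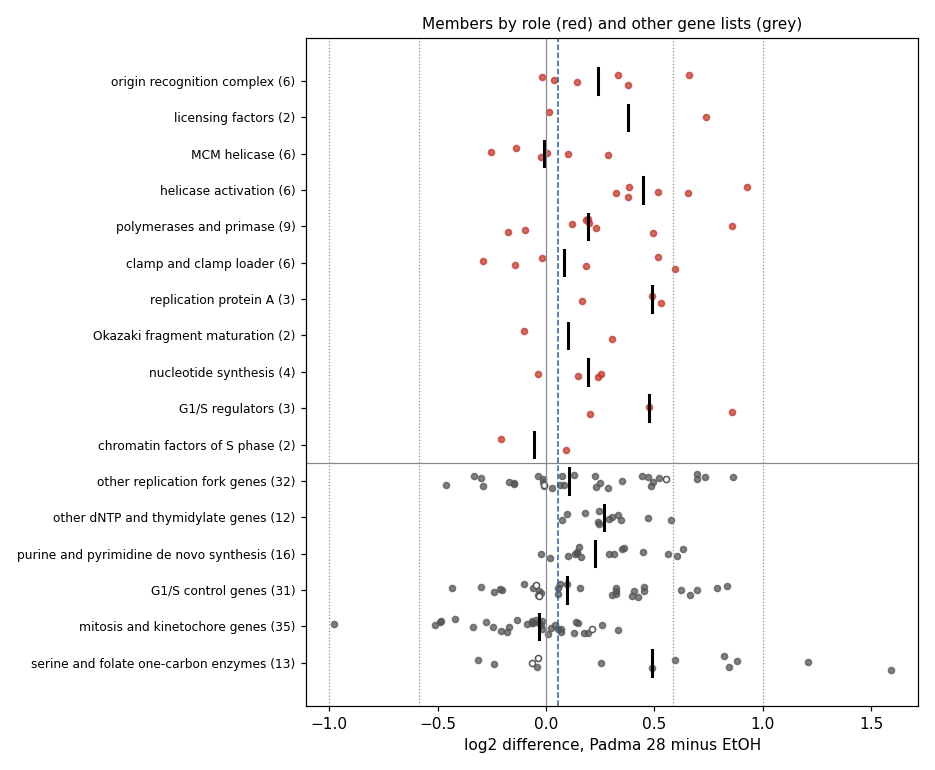
Log2 difference, Padma 28 minus EtOH (horizontal axis), of each gene by role (red, upper part) and of further gene lists (grey, lower part), with the number measured in brackets, 1 array per treatment. Points without fill belong to genes not above background on either array, black bars are medians, dotted lines mark 1.5-fold and 2-fold and the blue dashed line is the median of all genes above background; the helicase activation genes lie to its right and the mitosis genes spread around 0.

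Different probe sets of the same gene mostly lay on the same side of 0. Of the 95 probe sets that belong to the 49 genes, 78 were above background, with 59 above 0, 19 below 0 and a median of 0.24. More than 1.5-fold higher were 10 of the 78, against 6.23% of such probe sets of all genes, and none was more than 1.5-fold lower, against 4.1%. For 22 genes several probe sets were above background, and these lay all above 0 for 14 genes, all below 0 for MCM4, RFC1 and RFC3, and on both sides for ORC2, MCM5, RFC5, TYMS and HELLS. Between the 2 brightest probe sets of a gene the difference varied by a median of 0.14 over these 22 genes and by 0.15 over 5064 genes of the array. Most of the smaller differences above are of that size.

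Probe sets of the _s_at type can bind several transcripts and those of the _x_at type can also bind unrelated ones. Without both types 40 of the 49 genes remained, of which 27 were above 0, with a median of 0.19, and 6 were more than 1.5-fold higher. Of these 40, 37 were above background in that setting, while GINS2, POLA2 and RFC1 fell to probe sets below it, at -0.020, -0.013 and -0.016. Among all genes above background in that setting the median was 0.04 and 7.24% were more than 1.5-fold higher. The 6 genes more than 1.5-fold higher were ORC5, CDC6, GINS4, POLD3, RFC4 and CCNE2, while MCM10 dropped to 0.42. No gene was more than 1.5-fold lower. The genes lost were ORC3, ORC6, CDT1, MCM2, MCM7, CDC45, POLE, FEN1 and RRM1. Without the _x_at type alone 48 genes had a median of 0.22 and 7 were more than 1.5-fold higher, against 6.66% of genes above background. Without the _s_at type alone 42 genes, 40 of them above background, had a median of 0.19. Of these 42, 6 were more than 1.5-fold higher, against 6.77% of genes above background.

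**Figure D4:**
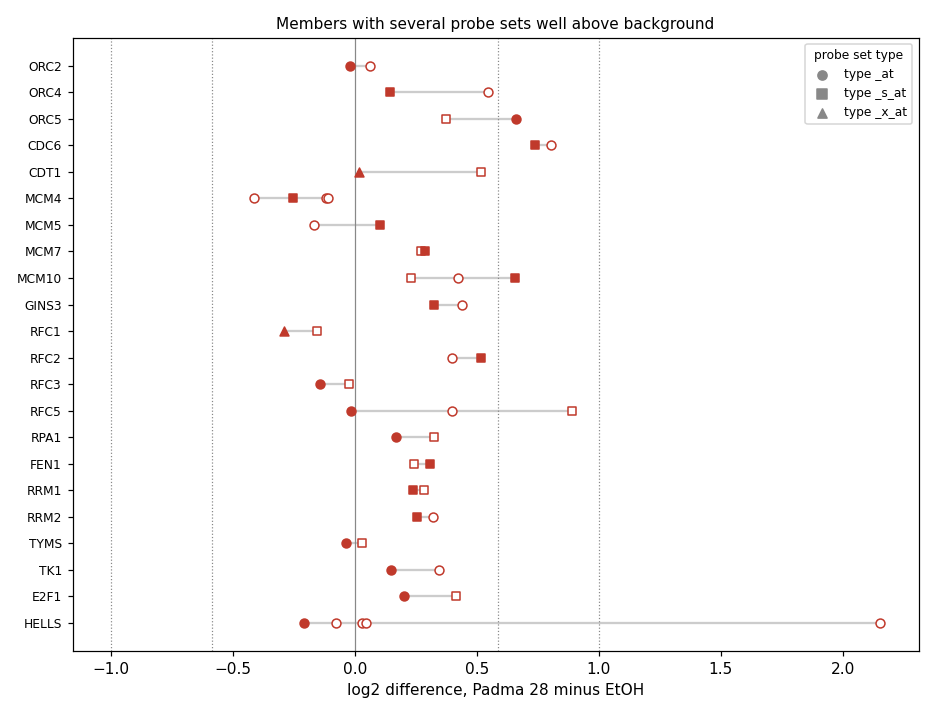
Log2 difference, Padma 28 minus EtOH (horizontal axis), of every probe set above background for the 22 genes with several, from 1 array per treatment. Filled symbols stand for a gene in the text, open symbols are its other probe sets, symbol shapes give the probe set type and dotted lines mark 1.5-fold and 2-fold; both CDC6 probe sets lie past 1.5-fold, while those of RFC5 and HELLS are spread widely.

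The dimmer of the 49 genes had larger differences. Across the 49 genes, Spearman's rho between the log2 difference and the mean level over both arrays was -0.37, compared with -0.07 across the 10361 genes above background, where genes are not independent replicates. The 24 dimmer members had a median of 0.38 and the 24 brighter ones a median of 0.10. Genes in general did not show this, with a median of 0.06 among 5861 dimmer genes within the members' range of EtOH values and 0.06 among 4099 brighter ones. The part of the level in the contrast between ring and activation factors was not tested.

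Further genes of the replication fork, a list of 32, included both directions. Of the 32, 30 were above background. More than 1.5-fold higher were 4, or 12.5%, none was lower, and the median was 0.11. Among all genes above background 6.49% were higher, 2.9% were lower and the median was 0.06. DSCC1, part of an alternative clamp loader, was at 8.26 with Padma 28 and 7.39 with EtOH, although its only other probe set was below background. The histone chaperone ASF1A was at 11.02 with Padma 28 and 10.28 with EtOH, with 0.52 on its other probe set. RNASEH2B, a subunit of the nuclease that removes ribonucleotides, was at 5.06 with Padma 28 and 4.36 with EtOH, close to the background limit.

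Nucleotide metabolism beyond the 4 core genes was slightly but widely higher. Among all genes above background 58.1% were above 0, with a median of 0.06. In the list of other deoxynucleotide and thymidylate genes, all 12 of 15 that were measured were above 0, with a median of 0.27. As deposited none of them was past 1.5-fold. Under other scalings all 12 stayed above 0, and 0 or 1 was past 1.5-fold. SAMHD1, which degrades deoxynucleotides, had the largest difference at 0.58, and its 5 probe sets above background lay between 0.50 and 0.66. The pyrophosphatase DCTPP1, which clears modified nucleotides, was at 0.47 and the mitochondrial thymidine kinase TK2 at 0.35 on its brightest probe set. Its further probe sets above background differed by -0.0030 and -0.39. Of 16 measured enzymes of purine and pyrimidine synthesis, 15 were above 0, 2 were more than 1.5-fold higher and none lower, with a median of 0.23. The 2 are 12.5%, against 6.49% higher and 2.9% lower of all genes above background. Under other scalings 14 to 16 were above 0 and 0 to 3 past 1.5-fold. The CTP synthases CTPS2 and CTPS1 were at 0.63 and 0.56, with -0.22 on a second probe set of CTPS2. DHODH, the mitochondrial enzyme of pyrimidine synthesis, was at 6.55 with Padma 28 and 5.94 with EtOH, and its 2 other probe sets were below background.

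Of 31 measured genes that control the step from G1 to S phase, 29 were above background. More than 1.5-fold higher were 5, or 16.1%, none was lower, and the median was 0.10. For all genes above background 6.49% were higher, 2.9% were lower and the median was 0.06. Under other scalings of the arrays 4 or 5 were past 1.5-fold higher. E2F7 and E2F8, atypical E2F factors that repress transcription, were among the 5 as deposited. E2F7 was at 7.51 with Padma 28 and 6.68 with EtOH, with -0.17 on a probe set below background on both arrays, and E2F8 was at 7.26 with Padma 28 and 6.56 with EtOH. Cyclin D3, CCND3, also among the 5, was at 4.50 with Padma 28 and 3.71 with EtOH, which is below background. Measured from the EtOH limit it was at least 1.19-fold higher, a bound that also depends on where the limit is set.

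Genes of mitosis, which follow replication in the cell cycle, had no such excess of increases. Of 35 genes 14 were above 0 and 21 below, with a median of -0.03. With each array centred on its median 19 were above 0, with a median of 0.02, and 41 of the 49 replication genes were above 0. Along a loess curve 9 mitosis genes were above 0, with quantile normalization repeated 12, and centred on the median of the genes above background 10. Their medians were -0.089, -0.060 and -0.088, and 34 of the 49 replication genes were above 0 under each of these scalings. Of the 35, none was more than 1.5-fold higher, against 6.49% of all genes above background. Only BUB1 was more than 1.5-fold lower, against 2.9%. This kinase of the spindle checkpoint was at 8.96 with Padma 28 and 9.93 with EtOH, with -0.78 on a second probe set. ANLN, a scaffold of cell division, was at -0.51 and BUB1B, a checkpoint protein, at -0.49. The difference between the mitosis and the replication genes was not tested, as 1 array per treatment allows no test. Serine and folate metabolism is the source of the carbon unit for thymidylate. Among 13 measured enzymes of this list, 11 of them above background, 6 were more than 1.5-fold higher and none lower. That is 46.2% higher, against 6.49% higher and 2.9% lower of all genes above background. ALDH1L2, which is among the 6, was at 4.47 with Padma 28 and 3.65 with EtOH, which is below background. The mitochondrial enzyme MTHFD2 was at 12.74 with Padma 28 and 11.54 with EtOH, the folate dehydrogenase ALDH1L1 was 3.01-fold higher and the serine synthesis enzyme PSAT1 1.84-fold, set beside TYMS at -0.04. A second ALDH1L1 probe set, below background on both arrays, differed by 0.098, and the median of both was 0.84.

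**Figure D5:**
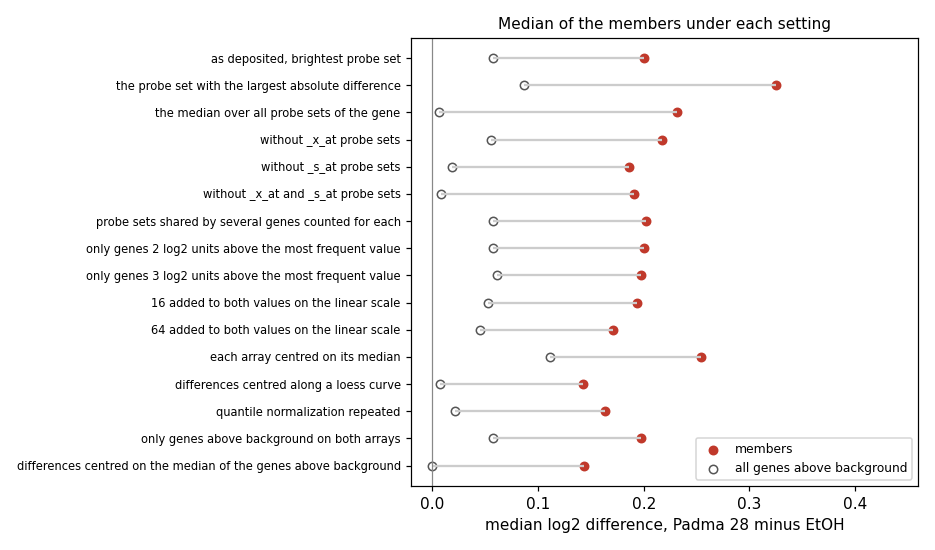
Median log2 difference, Padma 28 minus EtOH (horizontal axis), of the 49 genes (filled red) and of the genes whose brightest probe set was above background (open grey) under each processing setting, from 1 array per treatment. The median of the 49 genes lay between 0.14 and 0.33 and above that of all genes under each setting plotted.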

How the data were processed

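RNA from HepG2 cells treated with Padma 28 or EtOH, pooled from 3 cultures each, was hybridised to 1 array per treatment. The authors preprocessed the scanned arrays with GCRMA and deposited log2 values for 54675 probe sets. Versions in the notes of the submitters were GCRMA 2.28.0 in R 2.15.1, and the study's methods name earlier versions and an unspecific filter, which was not applied here. The deposited log2 value with EtOH was subtracted from that with Padma 28, as in the methods. Genes were named from the platform annotation, with symbols updated through Entrez identifiers to the RefSeq table of GRCh38.p14, which gave 41097 probe sets with 1 gene, 1801 with several and 11777 with none. The thresholds were 2-fold, as in the methods, and 1.5-fold. Precision is limited by having 1 array per treatment. The members and the lists were chosen with earlier results of these data known. All members are named, and from each further list up to 3 genes with the largest difference above background. Other genes were named after their values were seen. The steps of picking probe sets and counting genes were tested on simulated data with changes of 1 log2 unit. Smaller changes were not simulated. Calculations ran in Python 3.11.15 with pandas 2.3.3, numpy 2.4.6 and statsmodels 0.14.6 (figures: matplotlib 3.10.9). The alternatives are given in the closing section.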

Additional observations from a re-analysis of the deposited data

How the results depend on the processing

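The median of the 49 genes stayed above 0 under all 15 alternatives, from 0.14 along a loess curve to 0.33 with the probe set of largest difference, and the count past 1.5-fold lower stayed at 0. Between 34 and 41 genes were above 0 under other scalings of the arrays. The count past 1.5-fold higher, 7 as deposited, was 2 (4.08%, against 4.48% of genes above background) when a gene's probe sets were replaced by their median. It was 1 (2.04%, against 3.03%) with 64 added to both linear values, so that the excess over all genes was lost in both. Under the other alternatives it lay between 6 and 9, and counting probe sets above background in place of genes gave 10 of 78. Past 2-fold, 1 gene was higher with the probe set of largest difference, as was 1 when probe sets were counted in place of genes, in both cases HELLS. Single genes past 1.5-fold changed sign in 6 cases. These were GINS4 at -0.013 and RNASEH2B at -0.026 with that median, which includes sets below background, and DSCC1 at -0.019 and CTPS2 at -0.22 both without _s_at and without _x_at and _s_at sets. Of the further values of the 75 named genes under the alternatives, 1024 stayed within 0.15, the typical gap between probe sets of a gene, and 68 moved by more. Restricting to genes above background on both arrays, and centring on the median of the genes above background, were chosen after seeing the data, and gave medians of 0.20 and 0.14. No paired analysis was possible because each treatment has 1 array. Values near the background limit, as for CCNE2, have only a lower limit.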

Other observations

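Some neighbours of these genes in the cell cycle were lower with Padma 28 on every probe set above background, as seen after the values were known. Cyclin D1, CCND1, was at 10.91 with Padma 28 and 11.34 with EtOH, with -0.44 and -0.25 on its 2 probe sets. Its kinase partner CDK6 lay between -0.28 and -0.13 on 6 probe sets above background. TFDP2, a partner of E2F factors, was higher on all 4 of its probe sets, between 0.18 and 0.62.

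Histone chaperones of the replication fork went different ways. NASP, which carries histone H3 and linker histones, was lower on all 3 probe sets, between -0.73 and -0.33, whereas ASF1A was higher on both, at 0.73 and 0.52. TOP2A, the topoisomerase that untangles replicated DNA, was lower on all 3 probe sets, at 12.32 with Padma 28 and 12.78 with EtOH on the brightest.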
